A study of Drosophila melanogaster with 96 samples.

Results

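The genes described here encode the kinases, phosphatase subunits and degradation factors that act on the clock proteins PERIOD and TIMELESS of Drosophila melanogaster. They are dco, CkIIalpha, CkIIbeta, sgg, nmo, slmb, jet, tws, mts and Cul3. These 10 genes were taken by their FlyBase symbols from the 17610 genes of the deposited table. They were chosen with earlier results of these data known. All 10 were in the table and all 10 passed the filter on low counts. The study measured polyadenylated RNA in whole heads of adult flies that the labels give as male and of the ISO1 strain, the inbred stock behind the fly reference genome. One condition was a 12 h to 12 h light-dark cycle kept at 25 °C (25 °C LD). The other 3 were constant darkness kept at 18 °C (18 °C DD), 25 °C (25 °C DD) and 29 °C (29 °C DD). Collection covered hours 0, 4, 8, 12, 16 and 20 of days 4 and 5. Each of these 12 time points has 2 biological replicates, so a condition has 24 libraries and the series 96. The labels name no transgene or mutation, do not say how old the flies were or how many heads were pooled, and do not say from which event days and hours are counted.

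In flies, PERIOD and TIMELESS accumulate, enter the nucleus, repress their own transcription and are then degraded, and the timing of these steps is set by phosphorylation. Kinases add phosphates, protein phosphatase 2A takes them off, and ubiquitin ligases recognise the phosphorylated proteins and send them to the proteasome. Most of this control is exerted on proteins, and a change in transcript level is not a measure of enzyme activity.

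The libraries held 17.3 M to 34.7 M assigned counts (M is 1000000 counts; median 21.1 M), and the ranges of the 4 conditions overlapped. Counts were scaled for library size and composition and are given as CPM, counts per 1000000 counts. The least abundant gene of the group, jet, had a median count of 262 in 18 °C DD libraries, and each of the other members had a median of at least 1134 in every condition. Defining markers of the head were present in each library: the summed level of 7 photoreceptor genes was 20980 to 73887 CPM, that of 5 neuronal genes 1661 to 2687 CPM and that of 4 glial genes 238 to 434 CPM. Of 4 male accessory gland genes, 1 was at 0 in all libraries of each condition, and their sum did not exceed 0.226 CPM. The yolk protein genes Yp1, Yp2 and Yp3, which are characteristic of females, had means between 6938 and 18286 CPM, although all libraries carry the label male. Another listed female gene, Vm26Aa, had means of at most 0.0085 CPM. Of the dosage compensation RNAs of males, lncRNA:roX1 had means between 392 and 563 CPM and lncRNA:roX2 between 9.97 and 27.6 CPM. The part of these genes in the results was not tested. One 25 °C DD library, replicate 2 of day 5 at hour 16, stood out. It had the highest value of its condition for dco (130 CPM), CkIIbeta (115 CPM), nmo (79.1 CPM) and slmb (98.5 CPM). Replicate 1 of the same time point had 93.7, 101, 45.4 and 74.8 CPM. Results that turn on the first of these libraries are given with and without it. Some members differed by replicate number: jet was higher in replicate 1 at 10 to 12 of 12 time points in each condition, CkIIalpha was higher in replicate 2 at 9 to 12, and mts was higher in replicate 2 at 10 to 12. The labels do not say what a replicate number marks. As whole heads were measured, fewer cells of a type and less RNA per cell cannot be told apart.

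Compared per length, as CPM per kb of exon, the members kept nearly the same order in all 4 conditions. The gene for the catalytic subunit of protein phosphatase 2A, mts, came first with 94.0 ± 2.9 CPM per kb in 25 °C LD, 92.4 ± 5.0 in 18 °C DD, 93.8 ± 3.4 in 25 °C DD and 94.9 ± 3.8 in 29 °C DD (SD, n = 24 each). CkIIalpha, the catalytic subunit of casein kinase 2, was second with 42.0 ± 2.4 CPM per kb in 25 °C LD, 46.0 ± 2.1 in 18 °C DD, 40.5 ± 2.2 in 25 °C DD and 39.7 ± 2.6 in 29 °C DD. The ranges of mts and CkIIalpha did not overlap in any condition, nor did those of CkIIalpha and sgg. Then came sgg, tws, slmb and dco, whose neighbouring ranges overlapped, with means between 20.2 and 29.1 CPM per kb. CkIIbeta and Cul3 followed at means between 16.8 and 18.5 CPM per kb and overlapped each other. The lowest were jet and nmo, whose ranges overlapped in all conditions but 29 °C DD; there jet had 8.55 to 12.0 CPM per kb and nmo 6.30 to 8.50 CPM per kb. The plot of levels per length shows this order.

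**Figure D1:**
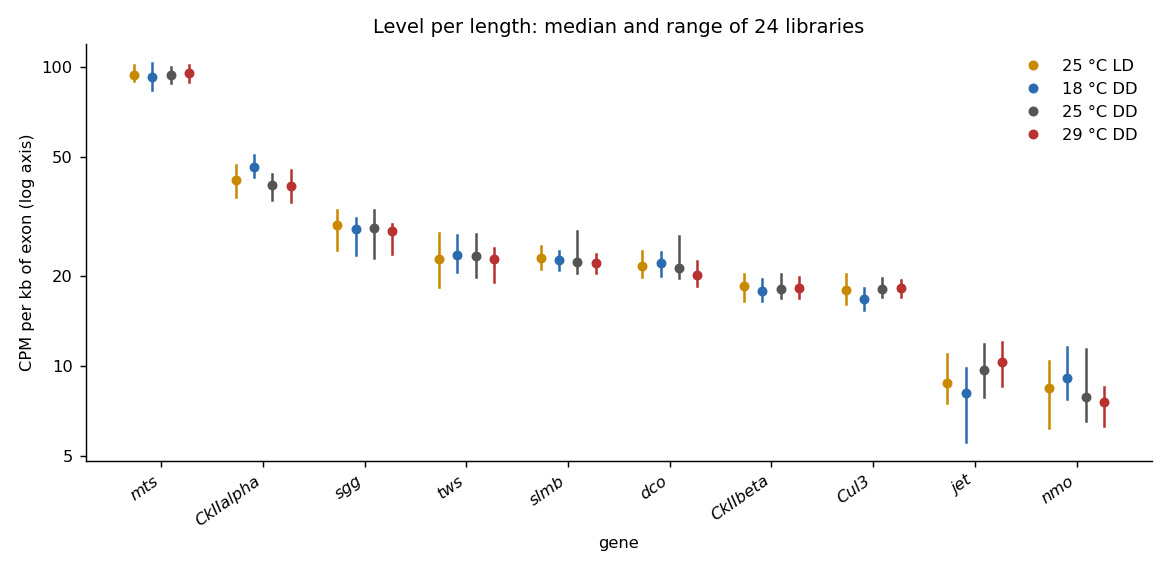
Level of each gene in CPM per kb of exon (log axis) in 25 °C LD, 18 °C DD, 25 °C DD and 29 °C DD; points are medians and lines the ranges of 24 libraries. mts and CkIIalpha stand above all others, and jet and nmo lie lowest.

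The positions that follow are from BDGP6.54; the build of the deposited counts is not given in the sources used here and may be another. The kinase genes dco (FBgn0002413, chromosome 3R, 31054085 to 31061210, minus strand), CkIIalpha (FBgn0264492, 3L, 23097072 to 23103460, plus strand) and nmo (FBgn0011817, 3L, 7979046 to 8054147, plus strand) are autosomal. CkIIbeta (FBgn0000259, 11792533 to 11801587, plus strand) and sgg (FBgn0003371, 2633952 to 2679553, plus strand) lie on the X chromosome. The phosphatase genes are tws (FBgn0004889, 3R, 10126129 to 10139772, minus strand) and mts (FBgn0004177, 2L, 7827650 to 7833576, plus strand). The degradation genes are slmb (FBgn0283468, 3R, 21119252 to 21127485, minus strand), jet (FBgn0031652, 2L, 4948206 to 4949784, minus strand) and Cul3 (FBgn0261268, 2L, 15265245 to 15272024, minus strand). The annotation gives sgg 19 transcripts with 12 protein lengths between 416 and 1168 residues, and the counts per gene sum over them. Exons of 3 members overlap another annotated gene: 1470 bp of sgg (11.8% of its exon length) are shared with lncRNA:CR45197 on the same strand, 119 bp of jet (8.19%) with betaggt-I on the opposite strand, and 271 bp of CkIIalpha with a transposable element on the opposite strand. As the strand setting of the counting is not given in the sources used here, reads in these stretches are uncertain.

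Across the temperatures in constant darkness, the clearest differences were between 18 °C and the warmer conditions, and they were small. At 29 °C against 18 °C, jet and Cul3 were higher, by 1.26-fold and 1.09-fold, and nmo, CkIIalpha, dco and tws were lower, at 0.808, 0.862, 0.909 and 0.948 of the level at 18 °C. The other 4, CkIIbeta, sgg, slmb and mts, did not pass the test. So 6 of 10 members were called, 2 higher and 4 lower, where 74.5% of all 10702 genes tested were called, 38% higher and 36.5% lower. A gene was called at a Benjamini-Hochberg adjusted p under 0.05 over all genes tested, in edgeR's quasi-likelihood model of all 96 libraries. The median absolute difference of the members was 0.10 on the log2 scale, against 0.22 for all genes. The p-values measure the spread between the libraries.

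CkIIalpha encodes the catalytic subunit of casein kinase 2, which phosphorylates PERIOD and TIMELESS. Its lowest, median and highest levels were 96.3, 104 and 114 CPM in 18 °C DD, against 80.9, 90.5 and 98.7 CPM in 25 °C DD. Of the 24 libraries at 18 °C, 21 lay above every 25 °C DD library, and the mean was higher at 18 °C at 12 of 12 time points. The difference was 0.18 ± 0.02 on the log2 scale (standard error, edgeR adjusted p = 5.2e-11). In 29 °C DD its lowest, median and highest levels were 79.7, 89.7 and 102 CPM. Against 18 °C this was a difference of -0.21 ± 0.02 (edgeR adjusted p = 1.22e-13), and 21 of 24 libraries at 29 °C lay below every library at 18 °C. Between 29 °C and 25 °C the difference was -0.03 (95% interval -0.08 to 0.02) and was not called.

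The transcript of the regulatory subunit, CkIIbeta, differed in the other direction and much less. It had 93.9, 101 and 111 CPM as the lowest, median and highest values in 18 °C DD, against 96.1, 103 and 115 CPM in 25 °C DD, and the groups overlapped almost fully. The difference of -0.04 ± 0.02 was called (edgeR adjusted p = 0.0272), but not on day 4 alone, where it was -0.003, nor without either replicate number. Without the 25 °C DD library named above it was -0.04 and near the threshold (edgeR adjusted p = 0.0459). Per length, the CkIIalpha transcript stood at 2.59 ± 0.13 times that of CkIIbeta in 18 °C DD, 2.21 ± 0.14 times in 25 °C DD and 2.19 ± 0.15 times in 29 °C DD (SD, n = 24). In 25 °C LD the ratio was 2.27 ± 0.11. This ratio was chosen after the levels had been seen and has no test. It depends on the exon lengths used, 2256 bp for CkIIalpha and 5705 bp for CkIIbeta, taken over all annotated transcripts. Without division by length the 2 transcripts were near each other. CkIIalpha and CkIIbeta averaged 104 and 102 CPM in 18 °C DD, 91.4 and 105 in 25 °C DD, and 89.5 and 104 in 29 °C DD.

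The transcript of nmo, a proline-directed kinase that phosphorylates PERIOD, was lower at each higher temperature. Its lowest, median and highest values were 53.6, 63.5 and 80.4 CPM in 18 °C DD, 45.4, 54.8 and 79.1 CPM in 25 °C DD, and 43.8, 52.4 and 59.0 CPM in 29 °C DD. At 12 of 12 time points the mean at 29 °C was below that at 18 °C, and 15 of 24 libraries at 29 °C lay below every 18 °C library. The difference was -0.31 ± 0.05 between 29 °C and 18 °C (edgeR adjusted p = 3.83e-09), 0.17 ± 0.05 between 18 °C and 25 °C (edgeR adjusted p = 5.65e-04) and -0.14 ± 0.05 between 29 °C and 25 °C (edgeR adjusted p = 0.0176). The last was -0.12 without the 25 °C DD library named above (edgeR adjusted p = 0.0442), and the mean was lower at 29 °C at 9 of 12 time points. It was not called without either replicate number, on day 4 alone (-0.08, edgeR adjusted p = 0.564) or with either set of alternate hours. The difference between 18 °C and 25 °C was 0.09 and not called on day 5 alone (edgeR adjusted p = 0.253). It was also not called with hours 0, 8 and 16 alone (edgeR adjusted p = 0.0728).

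dco encodes DOUBLETIME, the casein kinase 1 that marks PERIOD for degradation. Its lowest, median and highest levels were 95.6, 106 and 115 CPM in 18 °C DD, 93.7, 101 and 130 CPM in 25 °C DD, and 88.4, 96.4 and 107 CPM in 29 °C DD. The ranges overlapped, and the mean at 29 °C was below that at 18 °C at 12 of 12 time points and below that at 25 °C at 10 of 12. The transcript fell by 0.14 ± 0.02 on the log2 scale at 29 °C against 18 °C (edgeR adjusted p = 2.08e-07) and by 0.09 ± 0.02 at 29 °C against 25 °C (edgeR adjusted p = 0.00148). The second difference was -0.05 and not called on day 4 alone (edgeR adjusted p = 0.404), and -0.08 without the library named above, where it was called. It was also not called without replicate 2 (edgeR adjusted p = 0.112) or with hours 0, 8 and 16 alone (edgeR adjusted p = 0.199). Between 18 °C and 25 °C dco differed by 0.04 (95% interval -0.002 to 0.09) and was not called, whereas without that 25 °C DD library the difference was 0.06 and called (edgeR adjusted p = 0.0143). Other alternatives called it too, among them day 4 alone (0.10, edgeR adjusted p = 0.00784) and leaving out replicate 2 (0.08, edgeR adjusted p = 0.0176).

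sgg, the fly glycogen synthase kinase 3 that phosphorylates TIMELESS, was not called between any pair of temperatures. It had 293, 358 and 391 CPM as the lowest, median and highest levels in 18 °C DD, 287, 360 and 414 CPM in 25 °C DD, and 294, 352 and 372 CPM in 29 °C DD. The 95% interval of its log2 difference was -0.08 to 0.06 between 18 °C and 25 °C, -0.13 to 0.02 between 29 °C and 25 °C, and -0.12 to 0.02 between 29 °C and 18 °C. Some alternatives called it. With 2 residual components as covariates, sgg was lower by 0.05 at 29 °C against 18 °C (edgeR adjusted p = 0.00425) and against 25 °C (edgeR adjusted p = 0.00438). With a block for day, hour and replicate number, it was called between 29 °C and 18 °C (edgeR adjusted p = 0.045).

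Among the degradation factors, jet had the largest difference of all members. JETLAG is an F-box protein that targets TIMELESS after light has activated CRYPTOCHROME. The lowest, median and highest jet levels were 8.11, 11.8 and 14.3 CPM in 18 °C DD, 11.5, 14.1 and 17.2 CPM in 25 °C DD, and 12.4, 15.0 and 17.4 CPM in 29 °C DD. At 29 °C, 15 of 24 libraries lay above every 18 °C library, and the mean was higher at 12 of 12 time points. The log2 difference was 0.34 ± 0.04 between 29 °C and 18 °C (edgeR adjusted p = 1.03e-10), -0.27 ± 0.04 between 18 °C and 25 °C (edgeR adjusted p = 1.71e-07), and 0.07 between 29 °C and 25 °C (95% interval -0.02 to 0.16, not called).

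Cul3 encodes the cullin scaffold of a ubiquitin ligase that acts on TIMELESS in darkness. It had 82.9, 90.6 and 98.3 CPM as the lowest, median and highest levels in 18 °C DD, 92.0, 97.8 and 106 CPM in 25 °C DD, and 92.0, 98.6 and 105 CPM in 29 °C DD. Of the libraries at 18 °C, 12 of 24 lay below every 25 °C DD library. The log2 difference was -0.11 ± 0.02 between 18 °C and 25 °C (edgeR adjusted p = 2.82e-07) and 0.13 ± 0.02 between 29 °C and 18 °C (edgeR adjusted p = 1.21e-08). On day 4 alone the first of these was -0.07 and not called (edgeR adjusted p = 0.0843). Between 29 °C and 25 °C it was 0.01 (95% interval -0.03 to 0.05).

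slmb, the F-box protein of the SCF ligase that recognises phosphorylated PERIOD, was not called at any temperature. Its lowest, median and highest levels were 73.2, 78.6 and 84.8 CPM in 18 °C DD, 71.1, 77.4 and 98.5 CPM in 25 °C DD, and 71.4, 76.8 and 82.3 CPM in 29 °C DD. The 95% interval of its log2 difference between 29 °C and 18 °C was -0.07 to 0.02. The differences between 18 °C and 25 °C and between 29 °C and 25 °C were -0.005 and -0.03.

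The phosphatase subunits differed little. tws encodes a B-type regulatory subunit that directs protein phosphatase 2A to PERIOD. It had 96.2, 115 and 125 CPM as the lowest, median and highest levels in 29 °C DD, against 104, 119 and 139 CPM in 18 °C DD. The difference of -0.08 ± 0.03 was called (edgeR adjusted p = 0.0364), but not without either replicate number, on day 5 alone, with either set of alternate hours, or under 2 of the other filters on low counts. The catalytic subunit mts had 275, 295 and 315 CPM as the lowest, median and highest levels in 29 °C DD, against 259, 286 and 319 CPM in 18 °C DD. Its difference of 0.04 (95% interval 0.001 to 0.08) was not called (edgeR adjusted p = 0.0565), and 7 of the alternatives called it, among them the replicate number as a block (edgeR adjusted p = 0.00787).

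**Figure D2:**
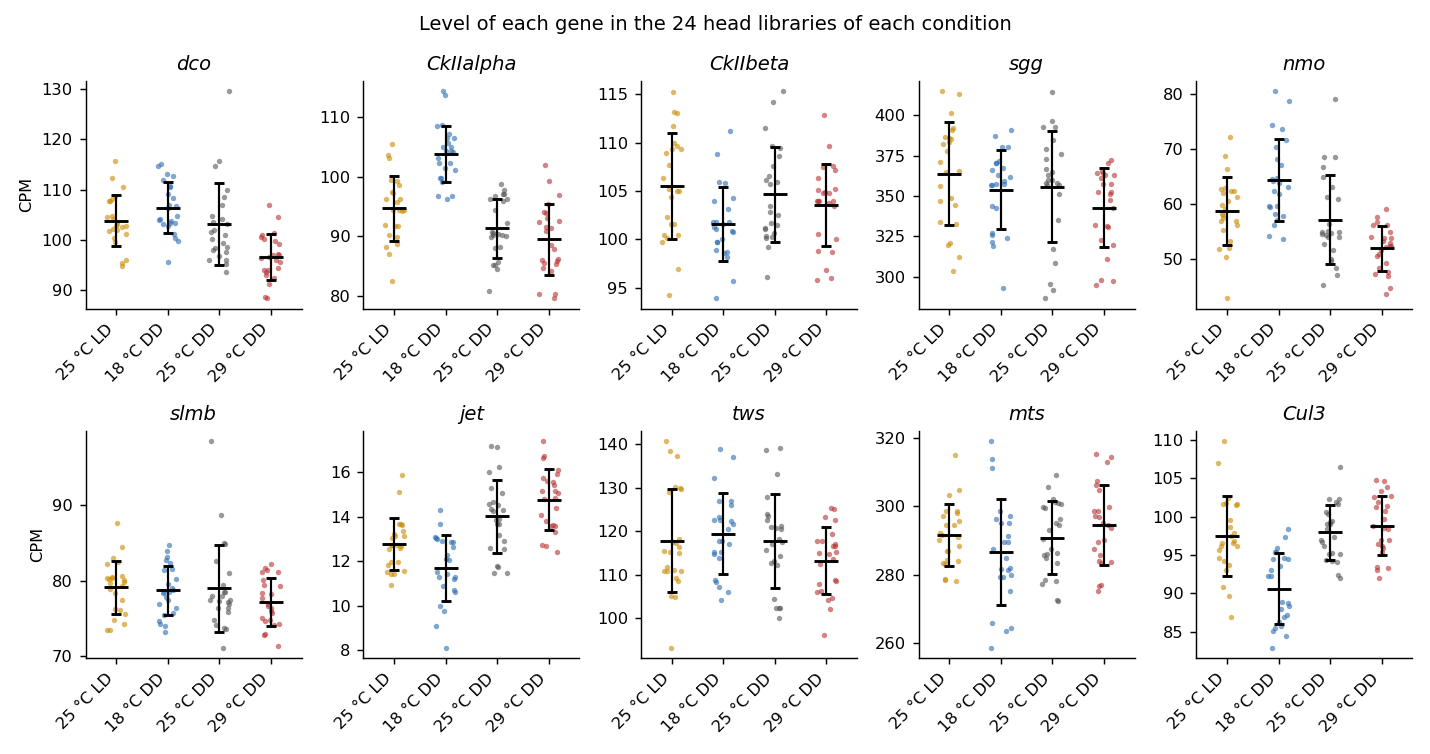
Level in CPM of each gene in every library, in 25 °C LD, 18 °C DD, 25 °C DD and 29 °C DD, with the mean and SD of 24 libraries in black; the axes do not start at 0. CkIIalpha is higher and jet and Cul3 are lower in 18 °C DD than in the other conditions in darkness, and all ranges overlap.

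Between 18 °C and 25 °C, 5 of 10 members were called where 66.8% of all genes were. Of these, 2 were higher (32.7% of all genes) and 3 lower (34.1% of all genes) at 18 °C. Between 29 °C and 25 °C, 2 of 10 were called, both lower (13% of all genes), where 26.8% of all genes were called in either direction. These comparisons share libraries of each condition, so their values for the members are not independent. The plot of differences gives each one with its interval.

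Markers of cell types also differed with temperature. At 29 °C against 18 °C, 7 of 7 photoreceptor genes were higher, with differences of 0.24 to 1.28 on the log2 scale. Of the 4 glial genes, 2 were lower and 0 higher, and their summed level was 238 to 321 CPM at 29 °C, against 321 to 434 CPM at 18 °C. Of the 5 neuronal genes, 2 were higher and 2 lower, and of the 4 tested fat body genes 1 was higher and 1 lower. Both roX genes were higher at 29 °C, with a summed level of 413 to 710 CPM, against 286 to 560 CPM at 18 °C, and 1 of 3 yolk protein genes was lower. The summed photoreceptor level was 44385 to 73887 CPM at 29 °C and 42940 to 72808 CPM at 25 °C in darkness, against 29609 to 55914 CPM at 18 °C. None of these markers was at 0 in all libraries of a condition. Their part in the differences of the members was not tested.

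**Figure D3:**
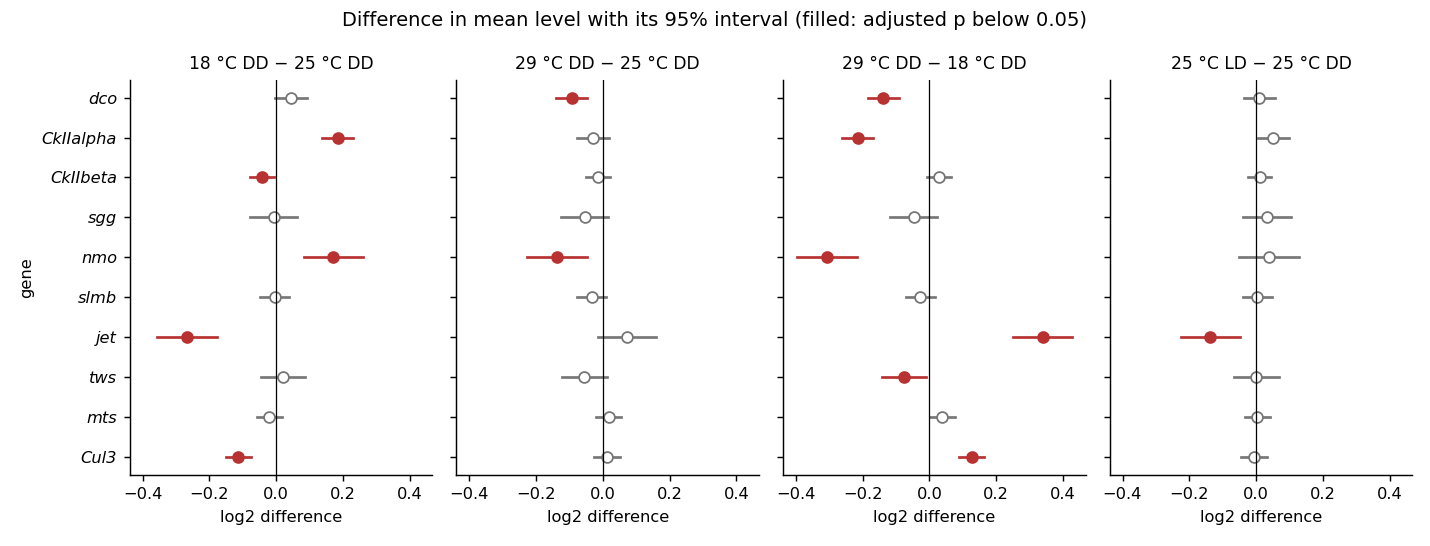
Log2 difference in mean level (point) with its 95% interval (line) for the 10 genes in 4 comparisons; filled red points were called. The points farthest from 0 are those of jet (0.34) and nmo (-0.31) between 29 °C and 18 °C.

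In 25 °C LD, the mean level of 1 member differed from that in 25 °C DD. jet had 10.9, 12.7 and 15.9 CPM as the lowest, median and highest levels in 25 °C LD, against 11.5, 14.1 and 17.2 CPM in 25 °C DD. The groups overlapped, 3 of 24 LD libraries lay below every DD library, and the mean was lower in LD at 10 of 12 time points. The difference was -0.14 ± 0.04 on the log2 scale (edgeR adjusted p = 0.0181), and it was called in neither day alone (-0.16 on day 4, -0.11 on day 5) nor without replicate 1. So 1 of 10 members was called, where 22.8% of all genes were. For the other 9 members the log2 difference lay between -0.01 for Cul3 and 0.05 for CkIIalpha, and 8 of these 9 intervals included 0. That of CkIIalpha was 0.005 to 0.10 (edgeR adjusted p = 0.103), and with the replicate number as a block its difference of 0.05 was called (edgeR adjusted p = 0.0253). The median log2 difference was 0.01 for the members and 0.0001 for all genes tested. In LD against DD, 1 of 7 photoreceptor genes was higher and 1 lower, 2 of 4 glial genes and 2 of 4 fat body genes were higher, and 1 of 5 neuronal genes was lower. The photoreceptor gene that was lower was ninaE, the major opsin, with 29189 ± 6527 CPM in LD, against 51846 ± 8175 CPM in DD (SD, n = 24 each), and the median log2 difference of the 7 genes was 0.05. Both roX genes were lower in LD (-0.30 and -0.22), and 0 of 3 yolk protein genes was called. The part of these markers in the result was not tested.

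Daily rhythms of the members were weak or not detectable. A rhythm was fitted as a 24 h cosine curve, and its amplitude is how far the peak of the curve lies above its mean, in log2 units. In 25 °C LD, 1 of 10 members was called, CkIIbeta, where 14.2% of all genes tested were called. In constant darkness 0 of 10 were called at 18 °C, 25 °C and 29 °C, where 0.196%, 0.439% and 0.14% of all genes were. In edgeR, 0 members had an unadjusted p under 0.05 in any condition in darkness. Of the 10702 genes tested, 556 had such a p at 18 °C, 858 at 25 °C and 622 at 29 °C. The median amplitude of the members was 0.05 in 25 °C LD, 0.04 in 18 °C DD, 0.03 in 25 °C DD and 0.02 in 29 °C DD, against 0.08, 0.05, 0.06 and 0.06 for all genes tested.

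CkIIbeta in 25 °C LD averaged 106 ± 2.3 CPM at hour 0, 101 ± 1.1 at hour 4, 98.9 ± 4.4 at hour 8, 106 ± 4.1 at hour 12, 112 ± 3.2 at hour 16 and 108 ± 5.5 at hour 20 (SD, n = 4 each). The 4 libraries at hour 16 held 108 to 115 CPM and lay above the 4 at hour 8, which held 94.2 to 104 CPM. The fitted amplitude was 0.08 ± 0.02, a peak 1.12 times the trough, and the peak fell at hour 17.9 ± 0.85 (standard errors, edgeR adjusted p = 0.0016). The call was not made without either replicate number (edgeR adjusted p = 0.124 and 0.0766) or on either day alone, with amplitudes between 0.07 and 0.09. In 25 °C DD the amplitude was 0.03 ± 0.02, and the difference in rhythm between LD and DD was not called (edgeR adjusted p = 0.421). None of the members was called for a difference in rhythm. Of all genes, 5.26% were called between LD and DD, 0.0934% between 18 °C and 25 °C, and 0% between 29 °C and 25 °C. At an unadjusted edgeR p under 0.05 these were 1, 0 and 0 of 10 members, against 1496, 354 and 236 of 10702 genes tested.

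The upper 95% limits show which amplitudes of a 24 h cosine curve the data would still allow. These limits do not cover hour patterns of another shape, such as those of sgg, tws and Cul3 described below. For mts they were 0.06 or less in all 4 conditions, and for Cul3 0.0812 or less. The widest were those of nmo, at 0.18 in 25 °C LD and 0.18 in 18 °C DD. By comparison, per, whose transcript oscillates under the clock, had an amplitude of 1.25 ± 0.07 in 25 °C LD and 0.45 ± 0.07 in 25 °C DD, and tim had 1.67 ± 0.08 and 0.27 ± 0.08. In darkness the rhythm of tim was not called at 18 °C, 25 °C or 29 °C (edgeR adjusted p = 0.524, 0.341 and 0.882). A rhythm that was not called in darkness is therefore not shown to be absent. Of the 8 core clock genes, 7 were called rhythmic in LD. In darkness 1 was called at 18 °C, 4 at 25 °C and 0 at 29 °C. The plot of amplitudes sets these side by side.

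**Figure D4:**
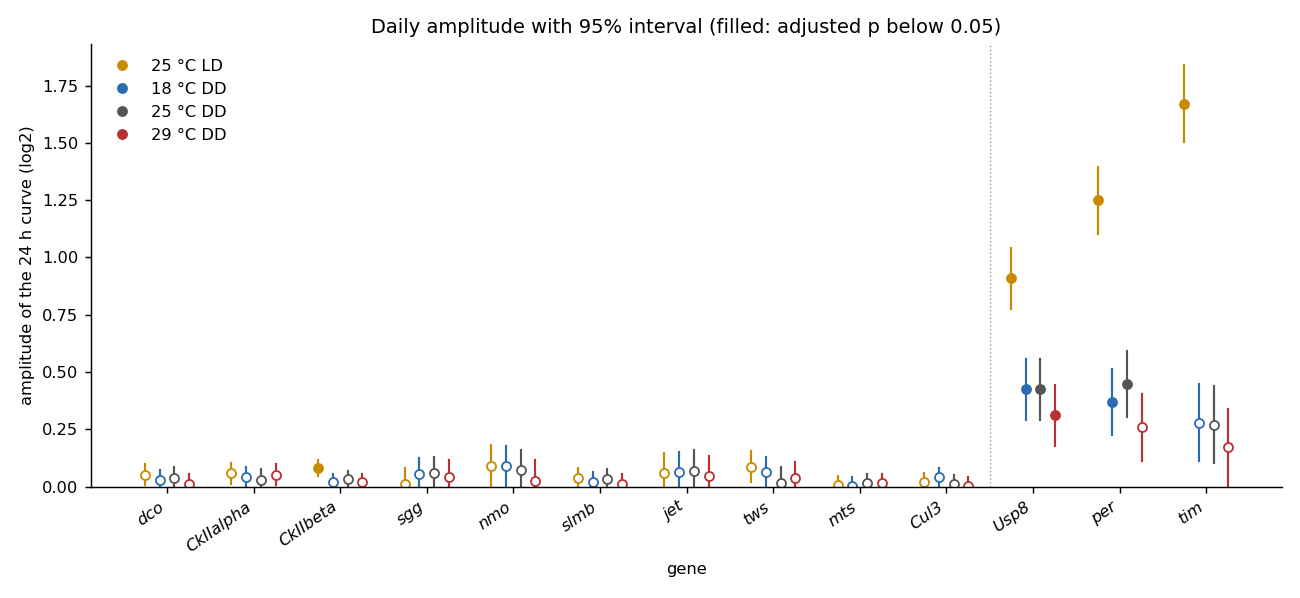
Amplitude of the fitted 24 h curve (log2) with its 95% interval, by condition, for the 10 genes and, right of the dotted line, Usp8, per and tim; filled points were called. CkIIbeta in 25 °C LD is the filled point among the 10 genes, all of which lie below 0.10.

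A cosine curve does not describe the hour profiles of sgg, tws and Cul3 well. In these genes successive time points alternated: hours 4, 12 and 20 were higher than hours 0, 8 and 16. This pattern was seen in the data first and then tested with a term added to the model for each condition. In 25 °C LD, sgg averaged 386 ± 17.7 CPM at hours 4, 12 and 20, against 342 ± 27.9 CPM at hours 0, 8 and 16 (SD, n = 12 each). In 18 °C DD these were 365 ± 14.6 and 343 ± 27.9 CPM, in 25 °C DD 372 ± 18.1 and 340 ± 39.6 CPM, and in 29 °C DD 359 ± 11.3 and 326 ± 23.6 CPM. The spread was thus wider at hours 0, 8 and 16 in all 4 conditions.

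The added term for sgg was 0.09 to 0.17 on the log2 scale and was called in 3 of 4 conditions, all but 18 °C DD (edgeR adjusted p = 0.187). For tws it was 0.12 to 0.18 and was called in 4 of 4. For Cul3 it was 0.03 to 0.08 and was called in 2 of 4, 25 °C LD and 29 °C DD. The other 7 members were called in 0 conditions. Among all genes tested 18.3% were called in 25 °C LD, 8.04% in 18 °C DD, 11.5% in 25 °C DD and 9.14% in 29 °C DD. The labels do not say how the hours were collected or processed.

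tws in 25 °C LD departed from a plain alternation. It averaged 137 ± 4.6 CPM at hour 12 and 127 ± 6.1 CPM at hour 4 (SD, n = 4 each), while hours 0, 8, 16 and 20 averaged 109 to 113 CPM. With hour as a factor instead of a cosine, tws was called in LD (edgeR adjusted p = 8.32e-06), and so was sgg (edgeR adjusted p = 0.0309).

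**Figure D5:**
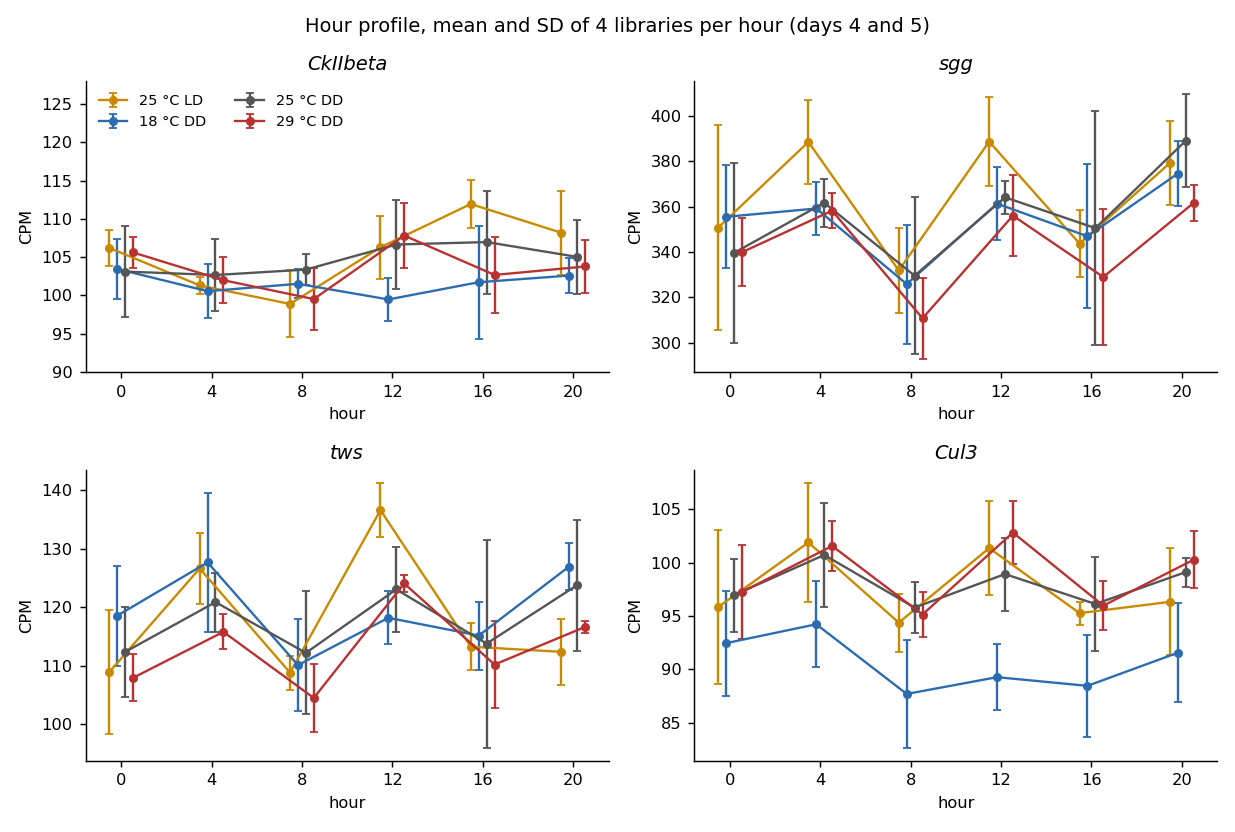
Mean level in CPM by hour for CkIIbeta, sgg, tws and Cul3, with the SD of 4 libraries (2 days, 2 replicates), in 25 °C LD, 18 °C DD, 25 °C DD and 29 °C DD; the axes do not start at 0. The means of sgg and Cul3 alternate between successive hours in all 4 conditions, and tws in LD is highest at hour 12.

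Within conditions, the members also varied from library to library. The condition, day and 24 h terms were removed, but not the differences by replicate number or the alternation of hours. The first component of the remaining variation in all genes held 20.3% of it. Over the 96 libraries it was correlated with sgg (Pearson r = 0.83, Spearman rho = 0.76, permutation p = 1e-05 each, the smallest that 100000 permutations can give). CkIIalpha was correlated in the opposite direction (r = -0.68, rho = -0.73, permutation p = 1e-05 each). Without the 2 libraries farthest from the median of the component, r was 0.81 and -0.66, and within single conditions it was 0.74 to 0.88 for sgg and -0.76 to -0.59 for CkIIalpha. Of the 10 relations computed, those of nmo, tws, Cul3, jet and dco were also positive (r = 0.65, 0.63, 0.58, 0.49 and 0.41) and that of mts was negative (r = -0.49). After Benjamini-Hochberg adjustment these 8 permutation p-values were at most 5e-05, and the smallest absolute r among them, 0.41, was reached by 53.2% of all genes tested. CkIIbeta and slmb had r = 0.06 and -0.07 (permutation p = 0.6 and 0.5). The permutations treated the 96 libraries as interchangeable, although hour and replicate number left patterns in them, so these p-values can be too small. An absolute r above 0.5 was seen for 5 of 10 members and for 44.3% of all genes tested, near the same share, and the members are among the genes from which the component was made.

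Other genes of the same pathways were read from 4 lists: kinases and their partners, phosphatases, degradation factors, and the enzymes of O-GlcNAc. The lists, too, were chosen with earlier results of these data known. Of their 42 genes, 41 could be tested. Between 29 °C and 18 °C, 30 of 41 were called (74.5% of all genes), 16 higher and 14 lower. Of all genes tested, 38% were higher and 36.5% lower. Of 11 phosphatase genes 0 were higher and 7 lower, with a median of -0.10, and of 16 degradation genes 11 were higher and 2 lower, with a median of 0.11. Of 12 kinase genes and partners, 4 were higher and 4 lower, with a median of -0.001, and all genes tested had a median of 0.005. Of the 2 O-GlcNAc enzymes, Oga was higher (0.08) and sxc lower (-0.23); 57.4% of the exon length of Oga overlaps a gene on the opposite strand.

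By the rule for named genes, 6 genes of the lists had the largest called differences between 29 °C and 18 °C. Bdbt, whose protein binds DOUBLETIME and stimulates it, averaged 17.1 ± 1.4 CPM in 29 °C DD, against 12.0 ± 0.8 CPM in 18 °C DD (SD, n = 24 each). The ranges, 14.1 to 19.6 and 10.2 to 13.5 CPM, did not overlap, and the difference was 0.51 ± 0.03 (edgeR adjusted p = 1.96e-25). Of its exon length, 4.3% overlaps ppan on the opposite strand. Tao, a kinase of the Hippo pathway, was higher by 0.39 ± 0.05 (edgeR adjusted p = 4.56e-11). Usp8, a deubiquitinase that acts on the clock activator CLOCK in flies, was higher by 0.33 ± 0.07 (edgeR adjusted p = 9.98e-06). Nedd8, the ubiquitin-like modifier that activates cullins, was higher by 0.24 ± 0.04 (edgeR adjusted p = 2.75e-08). Lower at 29 °C were rl, the fly ERK kinase (-0.31 ± 0.04, edgeR adjusted p = 7.87e-13), and Pp4-19C, the catalytic subunit of protein phosphatase 4 (-0.26 ± 0.03, edgeR adjusted p = 1.82e-14).

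In 25 °C LD against 25 °C DD, 3 of 41 genes of the lists were called, all lower. Among all genes tested 22.8% were called, 11.2% lower. They were wdb, a B′-type regulatory subunit of protein phosphatase 2A (-0.11 ± 0.03, edgeR adjusted p = 0.00711), CanA-14F, a calcineurin catalytic subunit (-0.10 ± 0.03, edgeR adjusted p = 0.0212), and BTBD9, which encodes a BTB-domain protein (-0.08 ± 0.03, edgeR adjusted p = 0.0136). The call of CanA-14F was not made without the 25 °C DD library named above, and none of these 3 was called on either day alone or without replicate 2.

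Usp8 stood apart from the members in its hour profile. In 25 °C LD it averaged 40.9 ± 3.6 CPM at hour 0, 49.8 ± 0.9 at hour 4, 91.1 ± 12.9 at hour 8, 171 ± 2.3 at hour 12, 84.8 ± 4.4 at hour 16 and 67.6 ± 5.4 at hour 20 (SD, n = 4 each). The 4 libraries at hour 12, with 169 to 174 CPM, lay above every other library of the condition. Its amplitude was 0.91 ± 0.07 in 25 °C LD, 0.43 ± 0.07 in 18 °C DD, 0.43 ± 0.07 in 25 °C DD and 0.31 ± 0.07 in 29 °C DD, and its rhythm was called in all 4 (edgeR adjusted p = 7.3e-20, 2.55e-04, 8.29e-05 and 0.0442). The call in LD was made under all 16 alternatives. That at 18 °C was not made on day 5 alone, with hours 0, 8 and 16 alone, or without either replicate number, and that at 25 °C in darkness not on day 5 alone, with those hours alone, or without replicate 1. At 29 °C it was lost under 9 of 16 alternatives. The peak lay at hour 12.5 in 25 °C LD, 3.7 in 18 °C DD, 11.6 in 25 °C DD and 14.3 in 29 °C DD. In 18 °C DD per had its fitted peak at hour 5.2, against hour 12.7 in 25 °C DD. The 4 libraries of 18 °C DD at hour 8 spread widely, with 56.9 to 115 CPM of Usp8 and 120 to 248 CPM of per. No single library of 18 °C DD was left out to see how far these peaks rest on it. In LD, 5 of 41 genes of the lists were called rhythmic, where 14.2% of all genes tested were. Apart from Usp8, these were CanA-14F (amplitude 0.14), the kinases Sik3 (0.13) and mnb (0.11), and CG4733 (0.12). RefSeq lists CG4733 as a B″-type subunit of protein phosphatase 2A. Of the exon length of CG4733, 12.6% overlaps ClpX on the opposite strand.

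Likeness of profile was measured as Pearson's r over the 48 means of condition and time point, as a description without a test. The gene most like sgg was Teh2 (r = 0.91), that most like nmo was sm (0.92), that most like Cul3 was CkIalpha (0.91) and that most like CkIIalpha was CG13255 (0.90). For tws it was fwd (0.87), for jet Lsm12a (0.84) and for dco Pdk1 (0.79). The values were lower for CkIIbeta (CG32647, 0.71), mts (CG45045, 0.65) and slmb (CG5065, 0.65). Within the group, the closest pair was sgg and tws (r = 0.74). The catalytic and regulatory transcripts of casein kinase 2 were not each other's closest members: CkIIalpha was most like nmo (r = 0.67) and CkIIbeta most like mts (r = 0.32).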

How the data were processed

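Polyadenylated head RNA of 96 samples was sequenced by the authors as strand-specific paired-end libraries, per the labels' protocols. The deposited table holds estimated counts per gene for 17610 FlyBase identifiers, not normalised by the authors; 40.2% of its nonzero values are not whole (tolerance 1e-06). The submitters' processing notes name fastp 0.23.2, HISAT2 2.2.1, featureCounts and Subread 2.0.8, with no settings; the genome build, annotation and strand setting are not given in the sources used here. All columns matched a sample. Symbols were found for 17607 identifiers, and exon lengths are from BDGP6.54.

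The design had assumed whole counts, so values were rounded before the count tests. In edgeR 4.0.16 (R 4.3.3), filterByExpr by condition kept 10702 of 16896 genes with a count (99.96% of counts), TMM factors scaled the libraries, and 1 quasi-likelihood model was fitted to all 96. Per condition it held 4 terms: mean, day shift, and the cosine and sine of a 24 h cycle (16 columns, 80 residual degrees of freedom, prior 4.76). Levels were tested as differences of means and rhythms through cosine and sine together, with Benjamini-Hochberg adjustment over all genes tested at 0.05. The delta method gave the errors of amplitudes and peak hours. The model was run on counts simulated without the replicate differences, hour alternation or shared component seen in the data. That run does not show how the model performs in their presence. Alternatives covered scaling (DESeq2 1.42.0 size factors), DESeq2's own test, filters, days, hours, replicates, rhythm shape, residual components and blocks. Members and lists were chosen with earlier results of these data known. Named list genes are the 6 with the largest called difference between 29 °C and 18 °C, the 3 between LD and DD, the 5 with the largest called amplitude in LD, and Usp8 and Bdbt. Figures were drawn with matplotlib 3.10.9. The labels give no batch or collection date, so a batch shared by all libraries of a condition cannot be told apart from it.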

Additional observations from a re-analysis of the deposited data

Results flagged for a closer look

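Among the members, no difference in rhythm between conditions was called. Among the listed genes of the same pathways, Usp8 differed in rhythm between conditions by a test of the difference itself. Between 25 °C LD and 25 °C DD the edgeR adjusted p was 0.000261, with amplitudes of 0.91 and 0.43 on the log2 scale and peaks at hours 12.5 and 11.6. This call was not made on day 4 alone, with hours 0, 8 and 16 alone, or without either replicate number. Between 18 °C DD and 25 °C DD the edgeR adjusted p was 1.65e-06, with amplitudes of 0.43 and 0.43 and peaks at hours 3.7 and 11.6. It was not called on day 5 alone or without replicate 1. Between 29 °C DD and 25 °C DD the rhythm of Usp8 was not called different (edgeR adjusted p = 1, peaks at hours 14.3 and 11.6).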

How the results depend on the processing

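Of the 14 level differences called among the members, 7 were called under all 15 alternatives: CkIIalpha and jet between 18 °C and 25 °C, and dco, CkIIalpha, nmo, jet and Cul3 between 29 °C and 18 °C. No called direction was reversed. Over all level results, 550 of 600 values kept their side of the threshold, 27 lost a call and 23 gained one; for rhythms these were 625 of 640, 6 and 9. Hours 0, 8 and 16 alone, hours 4, 12 and 20 alone, the alternation term and leaving out 1 library were chosen after seeing the data. With hours 0, 8 and 16 alone, 3 members were called between 18 °C and 25 °C, 0 between LD and DD, 0 between 29 °C and 25 °C and 0 for rhythm in LD. With hours 4, 12 and 20 alone, 1 was called between 29 °C and 25 °C, 2 for rhythm in LD and 1 for its difference from DD. On day 4 alone, 0 were called between LD and DD, 0 between 29 °C and 25 °C and 0 for rhythm in LD; on day 5 alone, 0 between LD and DD and 0 for rhythm in LD. With 2 residual components as covariates, 2 were called between LD and DD, 4 between 29 °C and 25 °C and 3 for rhythm in LD. Calls among all genes tested were also highest under this setting, at 4080, 4397 and 3320 (2440, 2864 and 1520 as reported). These gains were therefore not particular to the members. With the same covariates, 1 member each was called for rhythm at 18 °C and 25 °C, and 1 for the difference in rhythm between LD and DD. For rhythm at 18 °C and for that difference, calls among all genes were again highest under this setting (651 and 1526). With hour as a factor, 3 were called for rhythm in LD, a count not set against that of all genes under that setting. Leaving out replicate 1 or 2 gave 0 to 1 between LD and DD, 0 to 1 between 29 °C and 25 °C, and 0 for rhythm in LD. Over the alternatives, calls among all genes ranged from 472 to 4080 between LD and DD (2440 as reported), 799 to 4397 between 29 °C and 25 °C (2864), and 536 to 3320 for rhythm in LD (1520). In darkness, rhythm calls ranged from 0 to 651 at 18 °C (21), 0 to 768 at 25 °C (47) and 0 to 679 at 29 °C (15). Differences in rhythm ranged from 120 to 1526 between LD and DD (563), 0 to 119 between 18 °C and 25 °C (10) and 0 to 6 between 29 °C and 25 °C (0; 236 at an unadjusted p under 0.05). The causes were not tested.

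Same-numbered replicates of a time point deviated together in part (mean correlation 0.18 to 0.22, with 18 to 21 of 24 pairs above 0.1), short of every pair, and the labels name no shared source. With a replicate block, 2 members were called between LD and DD (CkIIalpha gained, adjusted p = 0.0253) and 2 for rhythm in LD (CkIIalpha gained, 0.046), and mts was gained between 29 °C and 18 °C (0.00787); with a replicate block by slot (day, hour and number), 2 were called between LD and DD and 1 for the difference in rhythm. Between pairs of conditions, 1 to 7 of 24 libraries correlated best with their own number. Of all members, jet has the fewest counts, and its intervals are among the widest.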
